A study of Mus musculus with 6 samples.

Results

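In SmoWT-MB cells, a Ptch-deficient line of mouse medulloblastoma cells, 154 probes of an Illumina bead array read above background on no array of JQ1-treated cells and on every array of GDC-0449-treated and solvent-treated cells. The 154 probes came from 45281 on the array and stood for 144 genes by current symbol. A probe was taken when its detection p-value, which ranks its signal among negative control beads of the same array, was 0.01 or above on both JQ1 arrays and under 0.01 on both GDC-0449 and both DMSO arrays. Its mean raw signal on the DMSO arrays also had to reach 120, so the members were chosen by their own measured detection and signal on these arrays. Of 163 probes with this pattern, 9 were left out by their symbols (Col18a1, Islr2, Kcnab1 with 2 probes, Sema6b, Slc30a10, Slc35f2, Zfp288 and Zfp551). The groups were cells given JQ1, labelled a BET inhibitor, cells given GDC-0449, labelled an inhibitor of Smoothened, and cells given DMSO, the solvent, each for 6 h and each with 2 arrays. All 3 groups share the Ptch deficiency and the same line, so they describe a single cell line. No dose is given in the labels. Whether the 2 arrays of each group stand for independent cultures is also unstated, so p-values cover only differences among these arrays, possibly technical ones. The loss on the JQ1 arrays chose the members and is described here without a test, whereas GDC-0449 against DMSO was tested.

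BET proteins are readers of acetylated histones. They help to bring the elongation factor P-TEFb to promoters and enhancers, and JQ1 occupies the bromodomains with which they bind. In the hedgehog pathway Ptch restrains Smoothened, so loss of Ptch leaves the GLI transcription factors active, which drives the growth of granule neuron precursors of the cerebellum and their tumours. GDC-0449 blocks Smoothened itself, upstream of GLI.

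Of the 6053 probes that every GDC-0449 and DMSO array detected and whose DMSO signal lay within the members' own range, 5791 stayed above background on both JQ1 arrays, 100 on 1 and 162 on none. With no upper limit on the signal, of 12446 probes that every GDC-0449 and DMSO array detected and whose DMSO signal reached 120, 12180 stayed above background on both JQ1 arrays and 103 on 1 of them. Losses with GDC-0449 were rarer still, since 1 probe of that DMSO signal was lost on both GDC-0449 arrays and kept with JQ1, and 2 were lost with both compounds. Each array was judged by its own detection limit, which after normalization was lower on the GDC-0449 arrays than on the JQ1 arrays. In the opposite direction, 8 probes with a JQ1 signal of at least 120 were detected on both JQ1 arrays and on no other array. Without any minimum on the signal the same pattern covered 756 probes. The JQ1 arrays detected 15125 and 15345 probes in all, the GDC-0449 arrays 16357 and 16154, and the DMSO arrays 16466 and 16230. The members were dim in solvent-treated cells too, with a median raw DMSO signal of 143 against 255 for all tested probes.

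All values from here on are log2 intensities after background correction and quantile normalization, unless a raw signal is named. The members lay between 4.36 and 5.47 on JQ1 array 1, with a median of 4.97, and between 4.31 and 5.41 on JQ1 array 2, with a median of 5.03. On the GDC-0449 arrays they lay between 5.31 and 8.84 (median 6.47) and between 5.28 and 8.86 (median 6.43). On the DMSO arrays they lay between 5.91 and 8.29 (median 6.54) and between 6.09 and 8.34 (median 6.57). For all 154 members both JQ1 values were below each of the other 4 values. The rule largely set this order, because it asked for detection on the other arrays and for none with JQ1. The place of JQ1 below the other groups is therefore no separate result for any member named below. Since no JQ1 array detected a member, a fold is a lower bound, computed with the JQ1 values raised to the lowest signal that counted as detected on their array, 5.47 and 5.42. By this measure the members were at least 1.72-fold to at least 7.30-fold lower with JQ1 than with DMSO, with a median bound of 2.14-fold. The bound was 2-fold or more for 93 members, 3-fold or more for 29 and 4-fold or more for 11. The lowest detected signals of the GDC-0449 arrays were lower, at 5.21 and 5.25. For 4 members, Mkx, B830020B14Rik, Cmpk2 and Sparcl1, the mean GDC-0449 value lay below the mean of the JQ1 limits. Their detection with GDC-0449 but not with JQ1 thus depended on these unequal limits. In bulk RNA, fewer cells that make a transcript and less transcript per cell cannot be told apart.

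Falling under the detection limit is not the same as reaching the signal of the control beads. The lowest JQ1 detection p-value of any member was 0.0107, which 10 members shared, and the highest was 0.84, for Cd276. A JQ1 value under 0.02 was found in 57 members, and 47 members had both JQ1 values at 0.05 or above. At the brightness limit the dimmest members were Mkx, with a raw DMSO mean of 120.01, Dipk1b with 120.35 and Prkcq with 120.94. Tpcn1 with 119.99, Ptp4a3 with 119.71 and Flrt1 with 119.02 had the same pattern just outside it.

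With GDC-0449, 35 members fell and 12 rose against DMSO at an adjusted p under 0.05 (limma, Benjamini-Hochberg over 17026 tested probes), and 107 did not pass. The changes of those that fell reached -1.45, and the changes of those that rose reached 0.95. These are 22.7% and 7.79% of the members. Of all tested probes, 8.11% fell and 7.24% rose. Among the 6053 probes detected on all GDC-0449 and DMSO arrays and within the members' range of DMSO signal, 9.05% fell and 8.24% rose. The median change of the members was -0.18 on the log2 scale, against 0.01 for all tested probes. Both GDC-0449 arrays lay below both DMSO arrays for 79 members, where 29.1% of tested probes did so, and above both for 38, where 31.5% did so. The remaining 37 members overlapped. A lack of overlap, as given for single members below, was thus common among tested probes. Because the rule asked for detection on the GDC-0449 arrays, no member could fall below background there, and the minimum on brightness was set on the DMSO arrays alone. The DMSO arrays of this test thus also helped to choose the members, which can favour falls with GDC-0449 over rises. The comparison probes were not chosen by a loss with JQ1. How far the choice of members shaped the 22.7% was not tested.

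The split between lower and higher depended on scaling. With each array scaled to its median in place of quantile normalization, 64 members fell and 8 rose, where 23.5% of tested probes fell and 2.73% rose, and the median of all tested probes itself moved to -0.20. Of the 47 calls, 14 held in each of 13 other fits, which changed the background correction, the scaling or the probes tested, added the replicate number, used a second deposited table or left out an array. Lrfn2, B830020B14Rik, BC034090, Cav1, Cmpk2, Rprml, Mkx, Sparcl1, Rftn1, Lgi2, and 4930474M22Rik were the 11 of these that fell, and the 3 probes that rose were AI593442, Pdzrn3 and the brighter probe of Ky. The fall of Trub1 and the rise of the dimmer Ky probe held in the 12 fits that gave them a value, since 12 of the 47 called members had none in the fit of the brightest probe per symbol. The other 31 calls were each lost in at least 1 fit, and those named below are given with the highest adjusted p found when a single array was left out. No called member changed its sign in any fit that gave it a value.

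The members are grouped below by role, in small groups whose differences were not tested. Their counts are to be read beside the 22.7% of all members that fell with GDC-0449 and the 7.79% that rose. Among 9 members for secreted ligands and matrix proteins, 3 fell with GDC-0449, 2 rose and 4 did not pass. Angpt1, the ligand that activates the endothelial receptor Tek, was the brightest member. It read 5.06 and 5.14 on the JQ1 arrays, 8.84 and 8.86 on the GDC-0449 arrays and 8.29 and 8.34 on the DMSO arrays. The JQ1 arrays thus stood far below the other 4, at least 7.30-fold below DMSO and at least 10.6-fold below GDC-0449, and the GDC-0449 arrays stood above both DMSO arrays. Angpt1 rose with GDC-0449 by 0.54 (SE 0.09, limma adjusted p = 0.0094), although without DMSO array 1 the adjusted p was 0.061 and with median scaling the change was 0.27 (adjusted p = 0.147). The probe for the Tnfsf12-Tnfsf13 read-through transcript of neighbouring cytokine genes had 5.32 and 5.40 with JQ1, 7.90 and 7.68 with GDC-0449, and 6.99 and 7.15 with DMSO. Its rise with GDC-0449 was 0.72 (limma adjusted p = 0.0066, and 0.053 without DMSO array 1). Sparcl1, a matrix glycoprotein related to SPARC, showed the opposite order of the groups above background. It had 4.74 and 4.69 with JQ1, 5.31 and 5.48 with GDC-0449, and 6.41 and 6.12 with DMSO, so that the GDC-0449 values lay just over that group's lowest detected signals of 5.21 and 5.25. Sparcl1 fell with GDC-0449 by 0.87 on the log2 scale (limma adjusted p = 0.0041), as did Lgi2, a secreted synaptic protein of the LGI family, by 0.76 (adjusted p = 0.0031). Olfml3, an olfactomedin-like secreted protein, fell by 0.45 (adjusted p = 0.037, and 0.178 without DMSO array 1). Thsd4, a fibrillin-associated matrix protein, Thbs2, a thrombospondin, Nell2 and Ecrg4 did not pass, with changes from -0.27 to 0.30.

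Receptors at the cell surface held 11 member probes, of which 3 fell with GDC-0449, none rose and 8 did not pass. Pdgfra, the alpha receptor for platelet-derived growth factors, had 4.46 and 4.57 on the JQ1 arrays, 6.25 and 6.29 on the GDC-0449 arrays, and 6.79 and 6.99 on the DMSO arrays. The GDC-0449 and DMSO values of Pdgfra did not overlap. Pdgfra fell with GDC-0449 by 0.62 on the log2 scale (SE 0.11, limma adjusted p = 0.0088), with an adjusted p of 0.055 without DMSO array 2 and 0.0502 without GDC-0449 array 1. Bmpr1b, a type I receptor for bone morphogenetic proteins, fell by 0.51 (limma adjusted p = 0.013), and Mr1, which presents vitamin B metabolites to T cells, fell by 0.71 (adjusted p = 0.012). Both were lost when an array was left out, with adjusted p up to 0.082 and 0.080, in each case without DMSO array 1. Ntrk3, the receptor for neurotrophin-3, had 4.80 and 5.26 with JQ1, 6.19 and 6.26 with GDC-0449, and 6.40 and 6.19 with DMSO. Its GDC-0449 and DMSO values overlapped. Robo3, which steers commissural axons, Npr3, the clearance receptor for natriuretic peptides, Il17rc, the immune ligand Cd276, the lectin Mgl2, the orphan receptor Gpr27 and Nradd did not pass, with changes from -0.26 to 0.27. For Npr3, 3 other probes detected on both DMSO arrays did fall with GDC-0449, by 0.82, 0.65 and 0.76 (limma adjusted p = 0.0057, 0.028 and 0.0048), and the brightest of them was detected on all arrays.

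Cadherins and other adhesion and synapse genes held 14 probes, of which 3 fell with GDC-0449 and none rose. Lrfn2, a synaptic adhesion molecule, had 4.94 and 4.65 with JQ1, 5.60 and 5.71 with GDC-0449, and 6.93 and 7.29 with DMSO. It had the largest fall with GDC-0449 of all members, by 1.45 on the log2 scale or 2.74-fold (SE 0.15, limma adjusted p = 0.0011). Of the cadherins, Cdh20 was measured by 2 member probes, which had 4.98 and 5.13, and 5.09 and 4.64, with JQ1. The same probes had 7.25 and 7.28, and 5.83 and 6.16, with GDC-0449, and 7.43 and 7.50, and 6.52 and 6.46, with DMSO. For both probes the GDC-0449 arrays were below the DMSO arrays, with changes of -0.20 and -0.50 that did not pass (adjusted p = 0.195 and 0.076). Cdh7 fell by 0.41 (limma adjusted p = 0.036, and 0.149 without DMSO array 1), and Cdh15 gave 0.10 (adjusted p = 0.51). Syde1, which activates the GTPase activity of small G proteins, fell by 0.68 (adjusted p = 0.029, and 0.14 without DMSO array 1). The engulfment receptor gene Megf10 had 2 member probes, one with 5.23 and 5.21 under JQ1, 6.57 and 6.43 under GDC-0449, and 6.27 and 6.41 under DMSO. The other had 5.37 and 5.38 under JQ1, 6.38 and 6.11 under GDC-0449, and 6.36 and 6.30 under DMSO. Neither passed, with changes of 0.16 and -0.09. Pick1, a PDZ protein that binds AMPA receptors, had 5.09 and 4.65 with JQ1, 6.72 and 6.73 with GDC-0449, and 6.30 and 6.38 with DMSO. The kainate receptor subunit Grik5, Pick1, Cntnap4, Clmp and Thsd7b lay between -0.26 and 0.40 without passing.

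Among 8 members that organise membranes or belong to myelin, 2 fell with GDC-0449 and 6 did not pass. Cav1, the coat protein of caveolae, had 5.11 and 5.18 on the JQ1 arrays, 6.83 and 7.11 on the GDC-0449 arrays, and 8.04 and 8.17 on the DMSO arrays. Cav1 was at least 6.32-fold lower with JQ1 than with DMSO, and it fell 2.20-fold with GDC-0449 (log2 change -1.14, SE 0.12, limma adjusted p = 0.0013). Rftn1, which encodes the lipid raft protein raftlin, fell by 0.77 (adjusted p = 0.0057), with 4.49 and 4.79 under JQ1, 6.61 and 6.61 under GDC-0449, and 7.36 and 7.39 under DMSO. Gypc, glycophorin C of the membrane skeleton, had 4.47 and 4.47 with JQ1, 7.16 and 7.11 with GDC-0449, and 7.46 and 7.39 with DMSO. Its GDC-0449 arrays lay below its DMSO arrays without overlap, but its change of -0.29 with GDC-0449 did not pass (adjusted p = 0.070). Pmp22, a protein of peripheral myelin, gave -0.04 without passing. Plscr4, Ttyh1 and Myadm lay between -0.13 and 0.35.

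The 250 bases before the start of Cav1, the member with the largest GDC-0449 fall among the 15 brightest, are shown as an example of a promoter of a transcript that was lower with both compounds. They are chr6:17306085-17306334 on the plus strand (GRCm38.p6, RefSeq), written 5′ to 3′, and capitals mark TATAAA and GGGCGG, both read on the other strand.
Cav1: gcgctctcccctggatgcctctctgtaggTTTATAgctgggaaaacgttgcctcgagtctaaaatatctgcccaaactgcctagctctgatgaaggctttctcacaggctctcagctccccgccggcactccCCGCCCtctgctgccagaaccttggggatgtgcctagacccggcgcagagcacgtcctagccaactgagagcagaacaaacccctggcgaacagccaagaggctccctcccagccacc

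Lipid metabolism held 10 member probes, of which 2 fell with GDC-0449, 1 rose and 7 did not pass. Acsl5, which joins coenzyme A to long-chain fatty acids, had 4.70 and 5.37 on the JQ1 arrays, 7.18 and 7.48 on the GDC-0449 arrays, and 8.15 and 8.07 on the DMSO arrays. It was at least 6.35-fold lower with JQ1 than with DMSO. With GDC-0449 it fell by 0.78 (SE 0.20, limma adjusted p = 0.037), a call lost without any single GDC-0449 or DMSO array (adjusted p = 0.062 to 0.164). The related Acsl6 had 2 member probes. The brighter had 4.54 and 4.76 with JQ1, 7.62 and 7.60 with GDC-0449, and 7.29 and 7.19 with DMSO, and the dimmer had 5.18 and 5.15, 6.39 and 6.49, and 6.52 and 6.43 in the same groups. They gave 0.37 (adjusted p = 0.052) and -0.04 (adjusted p = 0.82) in GDC-0449 against DMSO. Acot2, a mitochondrial thioesterase that reverses the acyl-CoA step, had 4.65 and 5.07 with JQ1, 7.02 and 7.20 with GDC-0449, and 7.34 and 7.31 with DMSO. Mboat1, which transfers acyl chains to lysophospholipids, fell by 0.81 (adjusted p = 0.0092, and 0.068 without DMSO array 1). Pex11a, a factor of peroxisome division, rose by 0.41 (adjusted p = 0.034, 0.144 without DMSO array 2 and 0.253 with median scaling). The phosphatidylcholine transporter Abcb4, Abca9, Pemt and the sphingosine phosphate phosphatase Sgpp2 did not pass.

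The promoter window that RefSeq's table gives for Acsl5, shown because this gene and Cav1 had the lowest GDC-0449 values relative to DMSO among the 5 brightest members, is chr19:55253119-55253368 on the plus strand (GRCm38.p6, RefSeq). The start it precedes lies 1508 bases inside the annotated gene, so the window belongs to an internal start. Capitals mark CCAAT.
Acsl5: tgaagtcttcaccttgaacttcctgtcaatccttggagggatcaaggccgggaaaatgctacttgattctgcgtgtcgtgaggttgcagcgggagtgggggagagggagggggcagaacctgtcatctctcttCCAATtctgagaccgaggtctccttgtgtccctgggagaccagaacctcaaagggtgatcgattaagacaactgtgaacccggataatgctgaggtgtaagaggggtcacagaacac

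Other enzymes and transporters held 18 probes, with 3 that fell, 2 that rose and 13 that did not pass. Abcb9, a lysosomal peptide transporter, had 5.41 and 5.38 with JQ1, 7.92 and 7.71 with GDC-0449, and 8.27 and 8.16 with DMSO. It was at least 6.84-fold lower with JQ1 than with DMSO, and its GDC-0449 fall of 0.40 (adjusted p = 0.038) did not hold when any of the 6 arrays was left out (limma adjusted p = 0.053 to 0.175). Ky, a peptidase gene known from muscle, had 2 member probes, and on both the JQ1 arrays were lowest and the GDC-0449 arrays highest. The brighter had 4.63 and 4.71 with JQ1, 7.80 and 7.64 with GDC-0449, and 6.88 and 6.92 with DMSO. The dimmer had 4.67 and 4.69 with JQ1, 7.53 and 7.35 with GDC-0449, and 6.50 and 6.48 with DMSO. They rose with GDC-0449 by 0.82 and 0.95 (limma adjusted p = 0.0023 and 0.0013), and the change of the dimmer probe was the largest rise of any member. Carbonic anhydrase 14, Car14, had 5.40 and 4.95 with JQ1, 7.36 and 7.19 with GDC-0449, and 7.46 and 7.67 with DMSO. It did not pass in GDC-0449 against DMSO. Sirt5, a mitochondrial desuccinylase, had 4.59 and 4.89 with JQ1, 6.47 and 6.31 with GDC-0449, and 6.81 and 6.80 with DMSO on its brighter probe. On its dimmer probe it had 4.89 and 4.64, 5.59 and 5.73, and 6.32 and 6.17 in the same groups. The 2 probes gave -0.42 (adjusted p = 0.055) and -0.59 (adjusted p = 0.017, and 0.1005 without DMSO array 1), so only the dimmer passed. Gusb, the lysosomal glucuronidase, had 5.16 and 4.82 with JQ1, 6.25 and 6.20 with GDC-0449, and 6.57 and 6.54 with DMSO. Its second probe, named Gus-s on the array, had 5.02 and 5.38, 6.18 and 6.32, and 6.46 and 6.61 in the same groups. These probes gave -0.33 and -0.29 without passing, and the mannosyltransferase Alg9 fell by 0.37 (adjusted p = 0.037, and 0.169 without DMSO array 1). Aph1a of the gamma-secretase complex, Pde1c, Msrb2, Gpx7, Manba, Tha1, Mtrf1 and Afg1l lay between -0.36 and 0.08.

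The cytoskeleton and trafficking group of 10 probes had 2 that fell and 1 that rose. Frmd4a, a scaffold of cell polarity, had 5.47 and 5.40 with JQ1, at the edge of detection, 7.59 and 7.69 with GDC-0449, and 7.74 and 7.84 with DMSO. Tns3, which links integrin adhesions to actin, had 3 member probes. The brightest had 5.15 and 5.35 with JQ1, 7.50 and 7.56 with GDC-0449, and 7.52 and 7.41 with DMSO, and its change with GDC-0449 was 0.07. The other 2, which the array names Tens1, had 4.55 and 4.52, and 4.44 and 4.52, with JQ1. They had 6.21 and 6.10, and 5.94 and 6.25, with GDC-0449, and 6.26 and 6.58, and 6.45 and 6.25, with DMSO. They gave -0.26 each in GDC-0449 against DMSO, and none of the 3 passed. The dynein intermediate chain gene Dync1i1 fell by 0.64 (limma adjusted p = 0.018, and 0.099 without DMSO array 1) and Pdlim3 by 0.48 (adjusted p = 0.017, and 0.098 without DMSO array 1). Rab13, a small GTPase of vesicle traffic, rose by 0.50 (adjusted p = 0.016, 0.084 without DMSO array 2 and 0.088 with median scaling). Syne1, Rusc2 and Epb41l1 did not pass.

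Kinases, ubiquitin ligases and signalling proteins held 10 probes, with 1 that fell and 2 that rose. The 2 that rose encode related RING-type ubiquitin ligases. Pdzrn3 had 4.82 and 5.19 with JQ1, 7.12 and 7.08 with GDC-0449, and 6.23 and 6.28 with DMSO, a rise of 0.84 with GDC-0449 (SE 0.13, limma adjusted p = 0.0057). Pdzrn4 had 4.69 and 5.22 with JQ1, 7.53 and 7.21 with GDC-0449, and 6.65 and 6.54 with DMSO, a rise of 0.78 (adjusted p = 0.025, and 0.122 without GDC-0449 array 1). In both genes the GDC-0449 arrays stood above the DMSO arrays, without overlap. Chek1, the checkpoint kinase of DNA replication stress, fell by 0.71 (adjusted p = 0.010, and 0.065 without DMSO array 1), with 5.04 and 5.23 under JQ1, 5.70 and 5.41 under GDC-0449, and 6.29 and 6.25 under DMSO. Prkcq, Lrrk1, Mark1, Rps6ka4, Neurl1a, Mob3b and Rragd did not pass, with changes from -0.44 to 0.59.

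Of the 17 probes for transcription, chromatin and RNA processing, 4 fell with GDC-0449, none rose and 13 did not pass. Mkx, a homeobox factor of tendon, had 4.75 and 4.64 with JQ1, 5.36 and 5.28 with GDC-0449, and 6.21 and 6.26 with DMSO. It fell with GDC-0449 by 0.91 (SE 0.10, limma adjusted p = 0.0013), to values near the lowest detected signals of the GDC-0449 arrays. The member probe of Trub1, a pseudouridine synthase, fell by 0.74 (adjusted p = 0.0041), while 3 brighter Trub1 probes detected on every array gave -0.30, -0.25 and -0.27 and did not pass (adjusted p = 0.097, 0.166 and 0.184). Riox2, a ribosomal oxygenase named Mina on the array, fell by 0.71 (adjusted p = 0.0081, and 0.055 without DMSO array 2). Magohb, a subunit of the exon junction complex, fell by 0.66 (adjusted p = 0.049, 0.055 with the replicate number as a block, and 0.185 without DMSO array 1). Ripply1, a corepressor known from somite formation, had 4.98 and 4.85 with JQ1, 7.05 and 7.36 with GDC-0449, and 7.62 and 7.59 with DMSO. Its change of -0.40 did not pass (adjusted p = 0.057). The chromatin reader Zmynd8 had 4.99 and 5.13 on the JQ1 arrays, 7.27 and 7.09 on the GDC-0449 arrays, and 7.40 and 7.02 on the DMSO arrays. Its GDC-0449 and DMSO arrays overlapped. Repin1, a zinc finger protein, had 5.22 and 5.16 with JQ1, 6.32 and 6.30 with GDC-0449, and 6.35 and 6.49 with DMSO. Tceal1, a protein related to elongation factor S-II, had 4.80 and 4.89 with JQ1, 6.59 and 6.61 with GDC-0449, and 6.66 and 6.37 with DMSO. Its other member probe had 5.40 and 5.14, 6.56 and 6.67, and 6.09 and 6.43 in the same groups. They gave 0.08 and 0.36 with GDC-0449 without passing. Foxq1, Dlx1, Nr2c1, Chd1l, Smyd5, Ptbp2, Hnrnpd, Repin1 and Hexim2 did not pass, with changes from -0.39 to 0.21.

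Interferon responses and innate immunity held 5 members, of which 2 fell with GDC-0449 and 3 did not pass. Rsad2, which encodes the antiviral enzyme viperin, had 4.94 and 4.87 with JQ1, 6.60 and 6.68 with GDC-0449, and 6.58 and 6.81 with DMSO. Cmpk2, a mitochondrial nucleotide kinase that the array names Tyki, had 4.94 and 5.23 with JQ1, 5.32 and 5.36 with GDC-0449, and 6.37 and 6.41 with DMSO. In the RefSeq gene order no protein-coding gene lies between Rsad2 and Cmpk2. Rsad2 did not pass in GDC-0449 against DMSO (change -0.05, limma adjusted p = 0.77), whereas Cmpk2 fell by 1.05 (SE 0.12, adjusted p = 0.0016), to values near the lowest detected signal of the GDC-0449 arrays. The difference between the 2 genes was not tested. Ifit2, another interferon-induced gene, fell by 0.72 (adjusted p = 0.015, and 0.097 without DMSO array 1). The adaptor genes Tirap and Sting1 gave 0.05 and 0.36 (adjusted p = 0.82 and 0.051).

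The promoters of this neighbouring pair are printed because the genes were both lost with JQ1 and gave different values with GDC-0449. They are chr12:26456453-26456702 on the minus strand for Rsad2 and chr12:26468965-26469214 on the plus strand for Cmpk2 (GRCm38.p6, RefSeq). The last 98 bases of the Cmpk2 window lie inside the annotated gene, so the start it precedes is not the gene's outermost one. Capitals mark TGANTCA and TATAAA, with TATAAA read on the other strand.
Rsad2: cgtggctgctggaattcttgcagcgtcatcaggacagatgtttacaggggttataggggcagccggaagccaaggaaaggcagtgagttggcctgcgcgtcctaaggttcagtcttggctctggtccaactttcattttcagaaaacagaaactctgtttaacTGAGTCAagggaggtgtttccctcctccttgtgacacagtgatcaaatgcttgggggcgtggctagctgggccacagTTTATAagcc
Cmpk2: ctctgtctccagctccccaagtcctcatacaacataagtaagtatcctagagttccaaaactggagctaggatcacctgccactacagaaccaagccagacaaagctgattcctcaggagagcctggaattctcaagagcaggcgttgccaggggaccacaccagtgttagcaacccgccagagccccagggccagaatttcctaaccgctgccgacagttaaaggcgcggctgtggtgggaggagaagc
Rsad2 holds TGANTCA at 87 to 81 bases before its start and TATAAA at 10 to 5, and the 250 bases of Cmpk2 hold none of the patterns searched.

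The remaining 42 probes belong to clones, predicted transcripts and genes without a role assigned here, and 10 fell with GDC-0449, 4 rose and 28 did not pass. B830020B14Rik had 5.05 and 5.20 with JQ1, 5.42 and 5.43 with GDC-0449, and 6.93 and 6.69 with DMSO, a fall of 1.39 with GDC-0449 (limma adjusted p = 0.00045). BC034090 had 5.26 and 5.34 with JQ1, 5.68 and 5.99 with GDC-0449, and 7.03 and 6.93 with DMSO, a fall of 1.14 (adjusted p = 0.0014). For both clones the GDC-0449 and DMSO arrays did not overlap. Rprml, a relative of the cell-cycle gene Reprimo, had 4.84 and 5.08 with JQ1, 6.28 and 6.21 with GDC-0449, and 7.14 and 7.21 with DMSO, and fell by 0.93 (adjusted p = 0.0020). Fam110a had 5.40 and 4.98 with JQ1, 7.35 and 7.04 with GDC-0449, and 6.21 and 6.32 with DMSO. It rose with GDC-0449 by 0.93 (SE 0.16, adjusted p = 0.0087, and 0.064 without DMSO array 1). Dipk1b had 4.92 and 4.86 with JQ1, 6.47 and 6.25 with GDC-0449, and 6.57 and 6.71 with DMSO on the brighter of its 2 member probes. The dimmer had 4.44 and 4.54, 5.59 and 5.71, and 6.28 and 6.18 in the same groups. They gave -0.28 (adjusted p = 0.12) and -0.58 (adjusted p = 0.0092, and 0.065 without DMSO array 1). The long noncoding RNA Snhg17 had 5.19 and 5.41 with JQ1, 6.01 and 6.12 with GDC-0449, and 6.34 and 6.33 with DMSO, without passing (adjusted p = 0.125). Among the other clones, 4930474M22Rik fell by 0.73 (adjusted p = 0.0029) and AI593442 rose by 0.76 (adjusted p = 0.0044).

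Other probes of the same genes, which the rule did not take, show how far the loss was shared by other probes of a gene. Of 125 member genes with a current RefSeq symbol, 75 had another probe on the array, 147 probes in all, and 76 of these probes, from 53 genes, were above background on both DMSO arrays. On the JQ1 arrays 23 of the 76 were detected on none, 12 on 1 and 41 on both, so for 33 genes at least 1 other probe kept a signal with JQ1. The JQ1 value was below the DMSO value for 73 of the 76 and above it for 3. Among the 41 that both JQ1 arrays detected, 38 fell and none rose with JQ1 at an adjusted p under 0.05 (limma), with a median difference of -1.40 on the log2 scale, where 28.8% of all tested probes fell and 27.6% rose. These probes share genes and arrays with the contrast that chose the members, so the count is a description. Zmynd8 had a brighter probe with 8.62 and 8.54 on the JQ1 arrays, 10.97 and 10.98 on the GDC-0449 arrays, and 10.83 and 10.99 on the DMSO arrays. The brighter probe was therefore lower by 2.32 with JQ1 but still detected.

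Another probe of Pick1 was also lower but still detected, with 7.69 and 7.73 under JQ1 against 9.62 and 9.77 under DMSO. So was another probe of Pdzrn4, with 7.84 and 7.86 under JQ1 against 9.60 and 9.42 under DMSO. Another probe of Repin1 had 8.17 and 8.19 against 9.37 and 9.34, and another of Gusb 7.54 and 7.87 against 9.18 and 9.13, in JQ1 and DMSO cells. A smaller difference was found for another probe of Snhg17, which had 10.76 and 10.64 with JQ1 against 10.97 and 11.15 with DMSO, a difference of -0.36. Acsl5, too, had a probe that both JQ1 arrays detected, with 6.10 and 5.85 against 6.60 and 6.64 with DMSO. The 3 probes with a higher JQ1 value belonged to Acot2, Aph1a and Ntrk3, at 0.22, 0.11 and 0.02. For Aph1a the array therefore holds a member probe lost with JQ1 and another, brighter one with 7.78 and 7.61 with JQ1 against 7.78 and 7.40 with DMSO. Where these probes lie on their transcripts was not analysed here. Aph1a also overlaps the member gene Car14 in the RefSeq annotation.

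With GDC-0449 the other probes of genes with a called member mostly changed in the member's direction but often did not pass. Of 16 genes with a called member and another probe detected on both DMSO arrays, 5 had another probe called in the same direction, namely Abcb9, Chek1, Fam110a, Pdzrn4 and Riox2. Of the 23 other probes of these 16 genes, 7 passed in the same direction, none in the opposite one and 16 did not pass. Of all tested probes, 8.11% fell and 7.24% rose. Among the 16 that did not pass, the probes of Cdh7 and Pdlim3 and the dimmer Alg9 probe gave 0.19, 0.05 and 0.04, opposite in sign to their members. The others changed in their member's direction. The 37 genes whose members did not pass had 53 other probes detected on both DMSO arrays. Of these, 5 fell and 2 rose, which is near or below the shares of 8.11% and 7.24% of all tested probes. The 3 Npr3 probes were among those that fell.

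Relatives of the members, taken from family lists, moved in both directions with JQ1. The lists are short, and in the main fit 28.8% of all tested probes fell and 27.6% rose with JQ1. The list of long-chain acyl-CoA synthetases and mitochondrial fatty acid entry holds the members Acsl5 and Acsl6. Of its 9 other tested genes, 6 rose with JQ1 and none fell at an adjusted p under 0.05 (limma over all tested probes), with a median change of 0.63, and none passed with GDC-0449. With median scaling, under which the median of all tested probes moved to -0.30 in JQ1 against DMSO, 2 of the 9 rose and 1 fell with JQ1, with a median change of 0.27. Acsl3 had 9.61 and 9.86 with JQ1 against 9.02 and 8.77 with DMSO (change 0.84, SE 0.13), and Acsl1 had 8.01 and 7.80 against 7.17 and 7.37 (change 0.63, SE 0.12). Acsl1 and Acsl3 thus lay above DMSO with JQ1. The place of the Acsl5 and Acsl6 member probes below DMSO was set by the rule, and another Acsl5 probe, detected on both JQ1 arrays, differed by -0.64. In the caveolae list, beside Cav1, 2 of 3 other tested genes fell with JQ1 and 1 rose, a rise that did not pass with median scaling. Cavin2, another coat protein of caveolae, had 5.84 and 6.25 with JQ1, 9.74 and 9.62 with GDC-0449, and 9.47 and 9.39 with DMSO. It fell with JQ1 by 3.39 on the log2 scale (SE 0.14, limma adjusted p = 1.53e-06) and stayed above background on both JQ1 arrays.

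In the list of angiopoietins, vascular endothelial growth factors and their receptors, 3 of the 6 tested genes other than Angpt1 fell with JQ1 and none rose, and 2 fell and 1 rose with GDC-0449, the rise being lost with median scaling. Vegfb had 8.51 and 8.29 with JQ1, 9.73 and 9.95 with GDC-0449, and 9.78 and 9.87 with DMSO. Vegfa fell with GDC-0449 by 0.58 and did not pass with JQ1 (change 0.06). In the list of BET proteins and P-TEFb, 5 of the 9 tested genes other than Hexim2 rose with JQ1 (3 with median scaling), none fell and none passed with GDC-0449. Hexim1, which like Hexim2 encodes an inhibitor of P-TEFb, had 10.64 and 10.66 with JQ1 against 7.89 and 7.75 with DMSO. Hexim2 had 5.18 and 5.16 with JQ1, 6.53 and 6.36 with GDC-0449, and 6.36 and 6.13 with DMSO on its member probe, and a brighter probe of Hexim2 gave a JQ1 difference of -1.20. No member was on the hedgehog list, of whose 13 tested genes 9 fell and 1 rose with JQ1 and 9 fell with GDC-0449, or 11 and 1 with JQ1 and 10 with GDC-0449 under median scaling. The comparisons with JQ1 and with GDC-0449 share the DMSO arrays. Beside these list counts, 28.8% of all tested probes fell and 27.6% rose with JQ1 in the main fit, and 8.11% fell and 7.24% rose with GDC-0449.

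A few members lie near each other on their chromosomes. Apart from Rsad2 with Cmpk2 and Aph1a with Car14, the long noncoding RNA 4930474M22Rik lay 266.6 kb from Thbs2 with no protein-coding gene between them, and Mr1 and BC034090 had 1 protein-coding gene between them. Mr1 and BC034090 both fell with GDC-0449, where 22.7% of all members did so, and the Mr1 call was lost without DMSO array 1. Cmpk2 and 4930474M22Rik fell while Rsad2 and Thbs2 did not pass, and neither Aph1a nor Car14 passed. RefSeq promoter windows were found for 105 member genes, 160 windows in all, and their median GC content was 58%, against 61.3% for windows of tested genes and 52.7% for all windows. The pattern GGGCGG, searched on both strands of windows of equal length, was in 46.9% of member windows, 64.6% of those of tested genes and 35.7% of all. CCAAT was in 33.1%, 38.5% and 37.4%, TATAAA in 6.88%, 6.92% and 13.6%, CACGTG in 5.62%, 9.96% and 7.15%, and TGANTCA in 5.62%, 4.52% and 7.81%. GACCACCCA, the binding pattern of GLI factors, was in 0% of member windows, 0.235% of those of tested genes and 0.253% of all. It is so rare that 160 member windows cannot show whether the members lack it. These shares are a description, and windows of the same gene overlap.

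The labelled cell type was compared with its markers. Of 11 markers of granule neuron precursors and medulloblastoma, 7 were detected on both JQ1 arrays, 8 on both GDC-0449 arrays and 8 on both DMSO arrays, among them Zic1, Otx2, Gli2 and Barhl1, whereas Atoh1 and Pax6 were on no array. Of the oligodendrocyte marker list, Mbp was detected on all arrays, with 6.35 and 6.25 under JQ1, 8.23 and 8.22 under GDC-0449, and 8.59 and 8.33 under DMSO. Mog, Sox10 and Olig1 of that list were on no array. The part of such cells in the results on myelin genes was not tested. Pdgfra stands on a fibroblast list whose other 4 genes, Col1a1, Col1a2, Dcn and Lum, were on no array, and its summed level, on the log2 scale, of 6.71 and 6.76 with JQ1, 7.33 and 7.38 with GDC-0449, and 7.62 and 7.77 with DMSO includes Pdgfra itself. Of the 5 genes of the astrocyte list, Slc1a3, a glutamate transporter, was detected on all arrays, with 10.02 and 10.12 under JQ1, 10.80 and 10.80 under GDC-0449, and 10.92 and 10.95 under DMSO, and Gfap, Aqp4, Aldh1l1 and S100b were on no array. No gene of the microglia or endothelial lists was detected on both arrays of any group, and the receptor Tek was on none.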

How the data were processed

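RNA of SmoWT-MB cells was extracted with Trizol, labelled as biotin cRNA and hybridised to Illumina mouse arrays, per the labels' protocols. Per the file headers, the deposited raw table gives linear bead intensities, named as not normalized. It also gives, per the file headers, an unadjusted p-value of detection. A second deposited table holds 1 intensity per gene, which can be negative and whose normalization the sources used here do not describe. The submitters' processing notes name GenomeStudio 1.9.0. The number of arrays limits the precision.

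Background correction from the detection p-values, an offset of 16 and quantile normalization were done with neqc (limma 3.58.1, R 4.3.3). The offset pulls changes of dim probes towards 0. Probes detected (p under 0.01) on 2 or more of the 6 arrays, 17026 in number, entered a linear model with a coefficient per group (lmFit, eBayes, 3 residual and 5.33 prior degrees of freedom). Tests were two-sided at a Benjamini-Hochberg adjusted p of 0.05 over all tested probes, and the model was tested on simulated data. Errors are standard errors (SE) of log2 changes. Symbols followed the GRCm38.p6 RefSeq table, under which 108 member probes had a current symbol, 27 were updated and 19 kept theirs. Promoter sequences are RefSeq's.

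Given array by array were the 15 brightest named members, the 5 largest rises and 5 largest falls with GDC-0449, up to 8 members with another probe kept by JQ1, members of family lists and genes with several member probes. Other members given with values were chosen for having passed the test or for their role. Some members are not reported here. The members and lists were chosen with earlier results of these data known. The main fit did not pair arrays by replicate number. Correlations of same-numbered arrays' deviations were 0.01 (JQ1 and DMSO), -0.01 (GDC-0449 and DMSO) and 0.07 (JQ1 and GDC-0449). These values cannot tell whether arrays of the same number were handled together. Alternatives were the scaling, the background correction, the probe filter, the replicate number as a block, 1 probe per symbol, the second table, the thresholds of the member rule and leaving out each array.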

Additional observations from a re-analysis of the deposited data

How the results depend on the processing

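The count of members called in GDC-0449 against DMSO was 47 (35 fell, 12 rose). It was 72 with median scaling (64 and 8), 29 with no filter on dim probes (20 and 9) and 21 to 49 with an array left out, the lowest without DMSO array 1. It was 59 with no background correction, 40 with a detection p of 0.05 for tested probes, 43 with the replicate number as a block, 44 of 106 with the brightest probe per symbol and 47 of 146 with the second table, whose scale and centring stay unknown. The calls themselves remained for 43 of 47 with median scaling, 29 with no filter and 21 to 43 with an array left out, and 14 remained in all of the 13 fits, while 2 more remained in the 12 fits that gave them a value (the brightest probe per symbol gave none for 12 of the 47). The median change of -0.18 was -0.33 with median scaling, -0.11 with no background correction and -0.19 to -0.13 with an array left out. The number of members, 154, was 51 with a detection threshold of 0.05, 47 of them shared, 305 with a DMSO signal minimum of 100, 60 with 150 and 91 when the minimum was set on quantile-normalized signals. The median bound of the JQ1 fall, 2.14-fold, was 2.67 with median scaling, 1.55 with no background correction and 2.11 to 2.19 with an array left out. Among members given array by array, 488 single values kept their side of the threshold, 33 gained a call and 29 lost it, and 0 of the called members changed sign. The causes were not tested. Detection limits the JQ1 values, which have only an upper bound.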
